A study of Mus musculus with 72 samples.

Results

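Transcript levels in whole blood were compared between the recovery and the exposure collection of mice given the higher of 2 doses of lead (Pb). These were the 13 arrays of high-lead mice after recovery and the 15 arrays of high-lead mice after exposure, 28 of the 72 arrays in the series, chosen by sample title, with all probe sets that carry exactly 1 gene symbol. All mice were female Balb/c animals, a standard inbred laboratory strain, aged 9 weeks at the start. Drinking water of the high-lead group held lead acetate trihydrate at 50 µg/mL for 2 weeks, and was free of lead for the 2 weeks after. The low-lead group drank 5 µg/mL on the same schedule (15 arrays at each collection), and the control group drank water with 0 µg/mL throughout (7 arrays at each). Blood came from the submandibular vein, below the jaw, with a lancet, and all exposed mice were bled at both collections. The labels do not tie replicate numbers to mice, and do not say whether the 7 controls of each collection were the same animals. Age, an earlier bleed, the day of collection and any array run changed together with the withdrawal of lead. In high-lead mice these cannot be told apart. Many lists and genes are therefore set beside the controls, which never received lead. A high-lead change given without its control value is not thereby tied to the withdrawal of lead.

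Lead is a toxic metal that is carried in blood almost wholly inside red cells, where it inhibits enzymes of heme synthesis and the nucleotidase that clears pyrimidine nucleotides. Heat shock proteins are chaperones that bind unfolded proteins. Their genes are switched on within minutes to hours by heat shock factor 1 when proteins misfold, among other causes after contact with heavy metals. Whole blood RNA is a mixture from reticulocytes, platelets, lymphocytes, monocytes and granulocytes. For any gene below, fewer cells of a type and less RNA per cell cannot be told apart.

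Values are log2 signals, on which a difference of 1 is a 2-fold change. Differences are recovery minus exposure and are given ± SE from limma, a linear model fitted to all 72 arrays. P-values were adjusted over 12589 genes by the Benjamini-Hochberg method, and a gene is said to have risen or fallen when its adjusted p was under 0.05.

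The blood transcriptome of high-lead mice differed broadly between the collections. Of 12589 genes 6189 passed the threshold (49.2%), 3695 higher after recovery (29.4%) and 2494 lower (19.8%). The counts of each gene list below stand beside these shares over all genes. Most changes were small: the median absolute difference was 0.16, and 468 of the called genes differed by at least 1.5-fold, 298 higher and 170 lower. At least a 2-fold change was reached by 31 genes, 22 higher and 9 lower. Trim7, Fcer2a and Srpk3 rose most, and several genes of B lymphocytes were among the 15 largest rises; the largest fall was that of Hspa1b, which encodes an inducible Hsp70 chaperone. In 189 genes every recovery array lay above every exposure array (1.5% of genes), and in 20 genes every recovery array lay below (0.159%). In controls, with 7 arrays a collection, these numbers were 540 (4.29%) and 242 (1.92%). The share of higher genes among the called depended on scaling. It was 59.7% in the values as deposited, 48% after quantile normalization, 44.4% after centring each array on its median and 45.4% after cyclic loess.

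**Figure D1:**
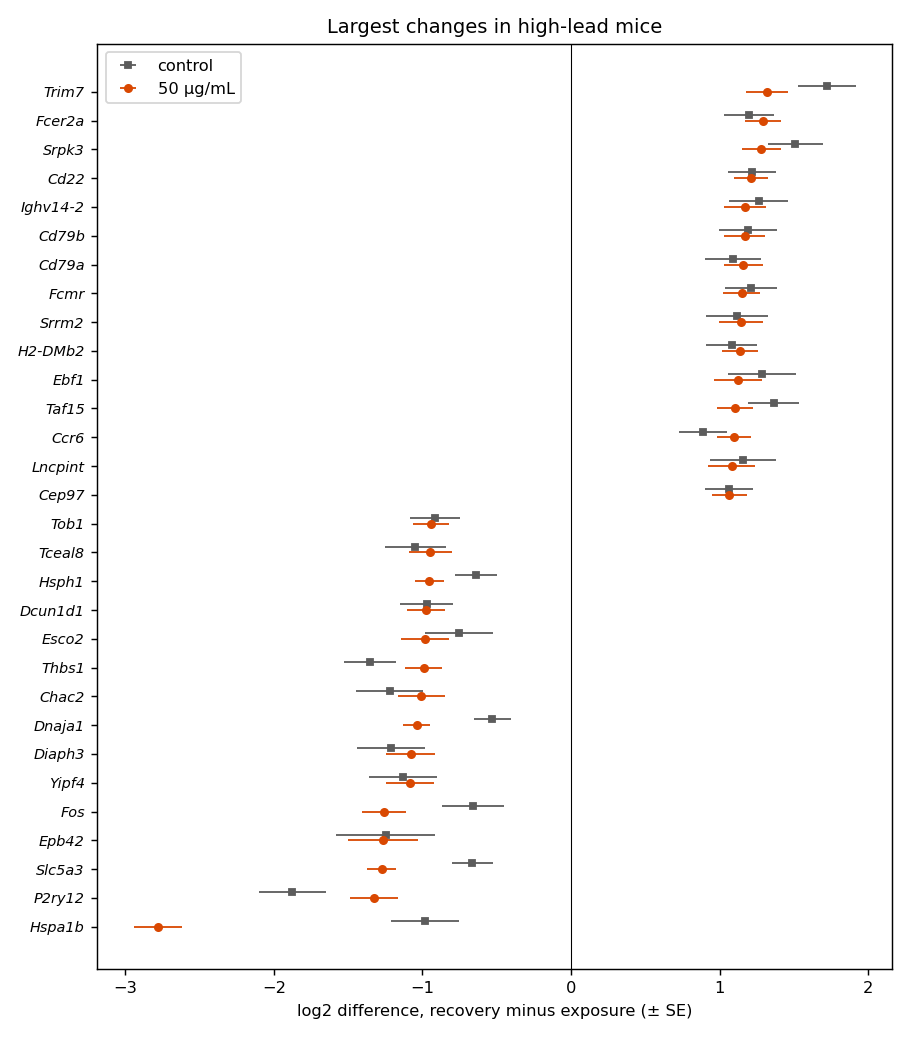
Log2 difference between recovery and exposure (points, with bars of ± SE) for the 15 highest and 15 lowest called genes in high-lead mice, gene models and clone names left out, beside the same genes in control mice. For most genes the high-lead points (circles) and control points (squares) lie close together, while Hspa1b lies at -2.78 in high-lead mice and at -0.98 in controls.

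Controls, kept on lead-free water, changed in much the same genes. In them 4544 genes passed the threshold (36.1%), 723 of them by at least 1.5-fold. Of the 6189 genes called in high-lead mice 6093 (98.4%) had the same sign in controls. Those called in both with the same sign numbered 3881, which is 62.7% of the high-lead calls and 85.4% of the control calls, and 2 genes were called with opposite signs. Across genes, which are not independent replicates, the high-lead and control changes correlated at Pearson r = 0.899 and Spearman rho = 0.901. In low-lead mice 5552 genes passed (44.1%), and 4484 were shared in sign with the high-lead calls, 72.5% of the high-lead and 80.8% of the low-lead calls. The groups differ in size, so the counts of calls do not rank the changes. The median absolute difference was 0.19 in controls, 0.16 in high-lead mice and 0.14 in low-lead mice.

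The change between collections was itself compared between groups. Of 12589 genes 1 passed the threshold for a difference between the high-lead and the control change (0.00794%), Hspa1b, which fell further in high-lead mice, and 432 had an unadjusted p under 0.05. Against the low-lead change 8 genes passed (0.0635%), and 554 had an unadjusted p under 0.05. All 8 fell further in high-lead mice: Hspa1b, Hsph1, Slc5a3, Stip1, Dnaja1, Hsp90aa1, Chordc1 and Hspd1. For all but Hspa1b the low-lead mean after exposure lay below that of unexposed controls, and none but Hspa1b passed against controls. Of these 8 genes 7 encode chaperones or their partners and stand in the heat shock list. Slc5a3, a myo-inositol transporter that cells induce under osmotic stress, is the exception.

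**Figure D2:**
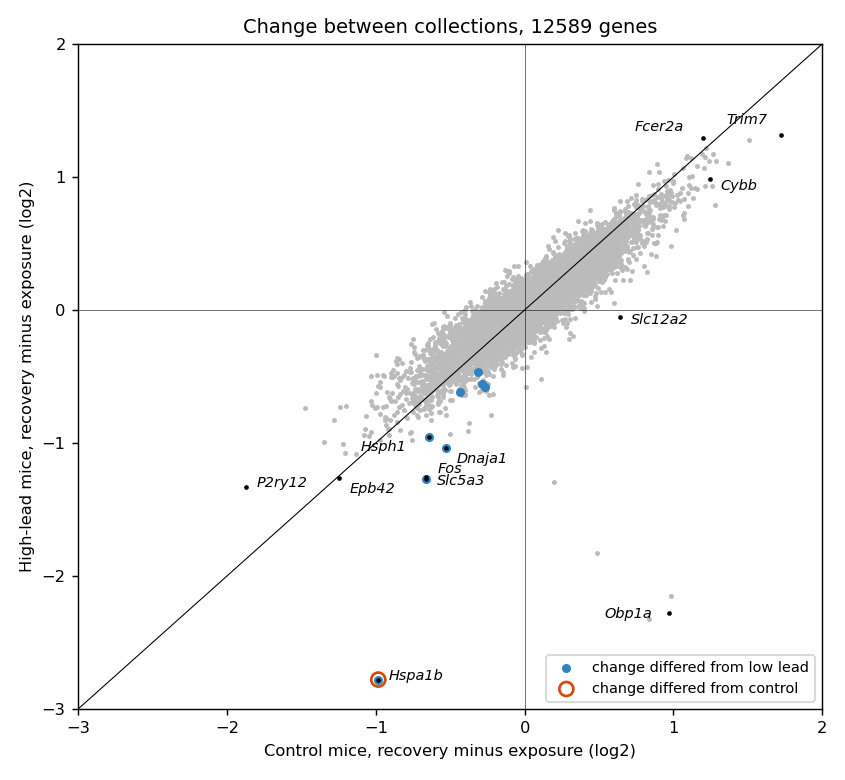
Log2 difference between recovery and exposure for each of the 12589 genes, in control mice (horizontal axis) and in high-lead mice (vertical axis), with the line of equal change. Genes lie along the line; Hspa1b (open ring) is the gene whose high-lead change differed from the control change, filled blue points are the 8 genes whose change differed from that of low-lead mice, and the few points near Obp1a, at lower right, did not pass the threshold.

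Promoter sequences are shown for 4 of these chaperone genes, because heat shock factor 1 is known to bind repeats of nGAAn blocks. The windows searched run from 250 bases before to 50 after each transcript start in RefSeq (build GRCm38.p6), and the motif searched was a pair of such blocks facing each other, GAANNTTC or TTCNNGAA, each of which reads the same on both strands, overlapping matches included. Capitals mark matches that lie wholly before the start. Distances are counted from the transcript start of the window shown. Dnaja1 and Hspd1 also have windows at other starts that hold no match. From another start of Hsph1 the same match lies 33 bases before it. Each Hsph1 window holds 3 matches, of which 1 lies wholly before the start and is shown.
Hspa1b, chr17:34959295-34959382, minus strand, match 104 bases before the start: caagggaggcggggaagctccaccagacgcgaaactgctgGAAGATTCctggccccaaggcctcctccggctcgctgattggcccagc
Dnaja1, chr4:40722304-40722391, plus strand, match 124 bases before the start: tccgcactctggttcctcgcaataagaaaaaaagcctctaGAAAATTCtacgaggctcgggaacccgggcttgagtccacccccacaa
Hsph1, chr5:149636322-149636409, minus strand, match 54 bases before the start: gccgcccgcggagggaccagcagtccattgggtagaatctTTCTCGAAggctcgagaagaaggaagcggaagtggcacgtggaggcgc
Hspd1, chr1:55088019-55088116, minus strand, 3 overlapping matches 144, 139 and 134 bases before the start: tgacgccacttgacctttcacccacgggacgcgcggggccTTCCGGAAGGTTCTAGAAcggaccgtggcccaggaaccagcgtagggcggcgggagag

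The motif is common: 4946 of 32851 RefSeq promoter windows hold it (15.1%), and 11.8% of those of tested genes. In the heat shock list 17 of 38 windows hold it (44.7%). Of the 8 genes named above 7 have a window in the table, and 5 of those 7 hold a match. Chordc1 matches only after its start, and Stip1 and Slc5a3 have no match in these windows. The promoter of Dnajb1, described below, has none either. A match is a description of the letters, not a measured binding site.

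Hspa1b had the largest change of any gene called in high-lead mice. Its level ran from 5.04 to 7.60 over the 15 exposure arrays, with a median of 5.93. After recovery it ran from 3.04 to 3.67 over 13 arrays, with a median of 3.30. All 13 recovery arrays lay below every exposure array, and the spread shrank as well, from an SD of 0.79 to an SD of 0.19. The gene fell by 2.78 ± 0.16 (limma, adjusted p = 2.33e-23). All 13 recovery values lay below 4.14, the median of all array values, where signal may not be above background, so no fold is given. In controls it went from 4.15 to 3.16, a fall of 0.98 ± 0.23 (adjusted p = 0.000522), and in low-lead mice it fell by 1.05 ± 0.16. Every control and low-lead recovery value also lay below 4.14, the highest being 3.30 and 3.55, as did part of their exposure values. The sizes of these falls, and of the contrasts with them, are thus uncertain. The high-lead fall exceeded the control fall by 1.80 ± 0.28 (a difference of -1.80, adjusted p = 0.000176) and the low-lead fall by 1.73 ± 0.23 (-1.73, adjusted p = 7.13e-07). After recovery the high-lead mean of 3.30 stood beside 3.16 in controls. The other probe sets of Hspa1b gave -2.76 and -2.20. Hspa1a, a near-identical copy, can share its probes, so the signal cannot be assigned to 1 of the pair with certainty.

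The Hsp40 co-chaperones hand unfolded proteins to Hsp70. Dnaja1 lay between 9.39 and 10.35 after exposure (median 9.73) and between 8.42 and 9.12 after recovery (median 8.81). The groups did not overlap, and the gene fell by 1.04 ± 0.09 (limma, adjusted p = 2.79e-15). It fell by 0.53 in controls and by 0.35 in low-lead mice; the change differed from the low-lead change by -0.69 ± 0.12 (adjusted p = 0.000734) and from the control change by -0.51 ± 0.15, which did not pass (adjusted p = 0.854). Dnajb1 ran from 7.35 to 9.00 after exposure and from 7.05 to 7.66 after recovery, with 4 of 13 recovery arrays below the exposure range. It fell by 0.79 ± 0.10 (adjusted p = 3.53e-10), against a control difference of -0.23 that did not pass (adjusted p = 0.182). The difference between those changes, -0.57, was not past the threshold (adjusted p = 0.854). Dnajb4 and Dnajb6 fell by 0.73 and 0.56, and in controls they fell by 0.96 and 0.59.

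Hsph1, an Hsp110 that recharges Hsp70 by exchanging its nucleotide, ran from 8.12 to 9.57 after exposure (median 8.66) and from 7.46 to 8.22 after recovery (median 7.86). Of 13 recovery arrays 12 lay below every exposure array. It fell by 0.95 ± 0.10 (limma, adjusted p = 3.97e-12) and by 0.64 in controls, while in low-lead mice the difference was -0.06 (adjusted p = 0.606). The high-lead and low-lead changes differed by -0.89 ± 0.14 (adjusted p = 5.28e-05). After exposure its mean was 7.77 in low-lead mice, 8.29 in controls and 8.81 in high-lead mice, with the low-lead mean lowest. The dimmer probe set of Hsph1 gave -1.58 in high-lead mice and -1.33 in controls. Stip1 had the same order, with means of 6.16, 6.66 and 6.72.

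Hsp90 folds kinases and receptors with the help of co-chaperones. Hsp90aa1, the inducible Hsp90, ran from 9.38 to 10.33 after exposure and from 9.10 to 9.52 after recovery, with 8 recovery arrays below the exposure range. It fell by 0.56 ± 0.06 (limma, adjusted p = 4.41e-11), by 0.29 in controls, and differed from the low-lead change by -0.46 ± 0.09 (adjusted p = 0.00277). A dimmer probe set of Hsp90aa1 gave -1.04, and -0.67 in controls. Stip1, which joins Hsp70 to Hsp90, fell by 0.62 ± 0.08, by 0.44 in controls, and showed a difference of 0.03 in low-lead mice (adjusted p = 0.805). Chordc1, an Hsp90 co-chaperone, fell by 0.58 ± 0.07 with 12 of 13 recovery arrays below the exposure range. Cacybp, a partner of Hsp90 and of ubiquitin ligases, fell by 0.74 ± 0.08 without overlap of the groups, and by 0.53 in controls. Cdc37, which loads kinases onto Hsp90, rose by 0.47 ± 0.08. Hspd1, the mitochondrial Hsp60, fell by 0.47 ± 0.07 without overlap, whereas Hspe1, its partner Hsp10, was at -0.07 (adjusted p = 0.505). In controls Chordc1 ran from 7.92 to 8.37 after exposure and from 7.63 to 8.15 after recovery. Control values of Hspd1 ran from 7.70 to 8.01 and then from 7.18 to 8.01.

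In all, 31 heat shock and cytosolic chaperone genes were measured. Of these 20 fell, 4 rose and 7 did not pass, with a median of -0.24, beside a median of -0.0046 over all tested genes. In controls 14 fell and 4 rose (median -0.21), and in low-lead mice 8 fell and 5 rose (median -0.05). The 4 that rose in high-lead mice were Cdc37, Hspa4 (an Hsp110 relative, 0.40), Hspbp1 (0.32) and Tcp1 (a subunit of the cytosolic chaperonin, 0.30). The constitutive Hspa8 fell by 0.18. Chaperones of the endoplasmic reticulum were listed apart. Of 24 genes of the unfolded protein response 4 fell and 5 rose, with a median of 0.00. These counts are not above the 19.8% lower and 29.4% higher over all genes. The lower calls outnumbered the higher after quantile normalization (7 and 4), centring (6 and 5) and cyclic loess (9 and 4). Hspa5, the Hsp70 of that compartment, was at -0.03 (adjusted p = 0.744). Dnajb9 (-0.54) and Atf4 (-0.27) fell, and Xbp1 (0.32) and Atf6 (0.30) rose.

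Slc5a3 ran from 4.80 to 6.16 after exposure (median 5.20) and from 3.67 to 4.35 after recovery (median 4.11), with no overlap. It fell by 1.27 ± 0.10 (limma, adjusted p = 2.92e-17), by 0.66 in controls and by 0.48 in low-lead mice, and its change differed from the low-lead change by -0.80 ± 0.13 (adjusted p = 0.000397). Its dimmer probe sets gave -0.21 and -0.03, so the probe sets disagree in size. Slc12a2, a sodium, potassium and chloride cotransporter, had the second smallest p of the contrast with controls, where it was not past the threshold. It was 6.30 after exposure and 6.25 after recovery in high-lead mice, a difference of -0.05 ± 0.09 (adjusted p = 0.63), while in controls it rose from 5.75 to 6.40, by 0.64 ± 0.12 (adjusted p = 3.09e-05). The changes differed by -0.70 ± 0.15 (adjusted p = 0.105). It passed in 12 of 57 alternative settings, among them quantile normalization, centring and cyclic loess (-0.69 in each) and array weights (-0.84). Next in order of p, also not past the threshold, were Thbd, an anticoagulant receptor gene (-0.62 ± 0.14, adjusted p = 0.148), Tubb6, a tubulin gene (-0.52, adjusted p = 0.433), and Klf10 (-0.52, adjusted p = 0.594).

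**Figure D3:**
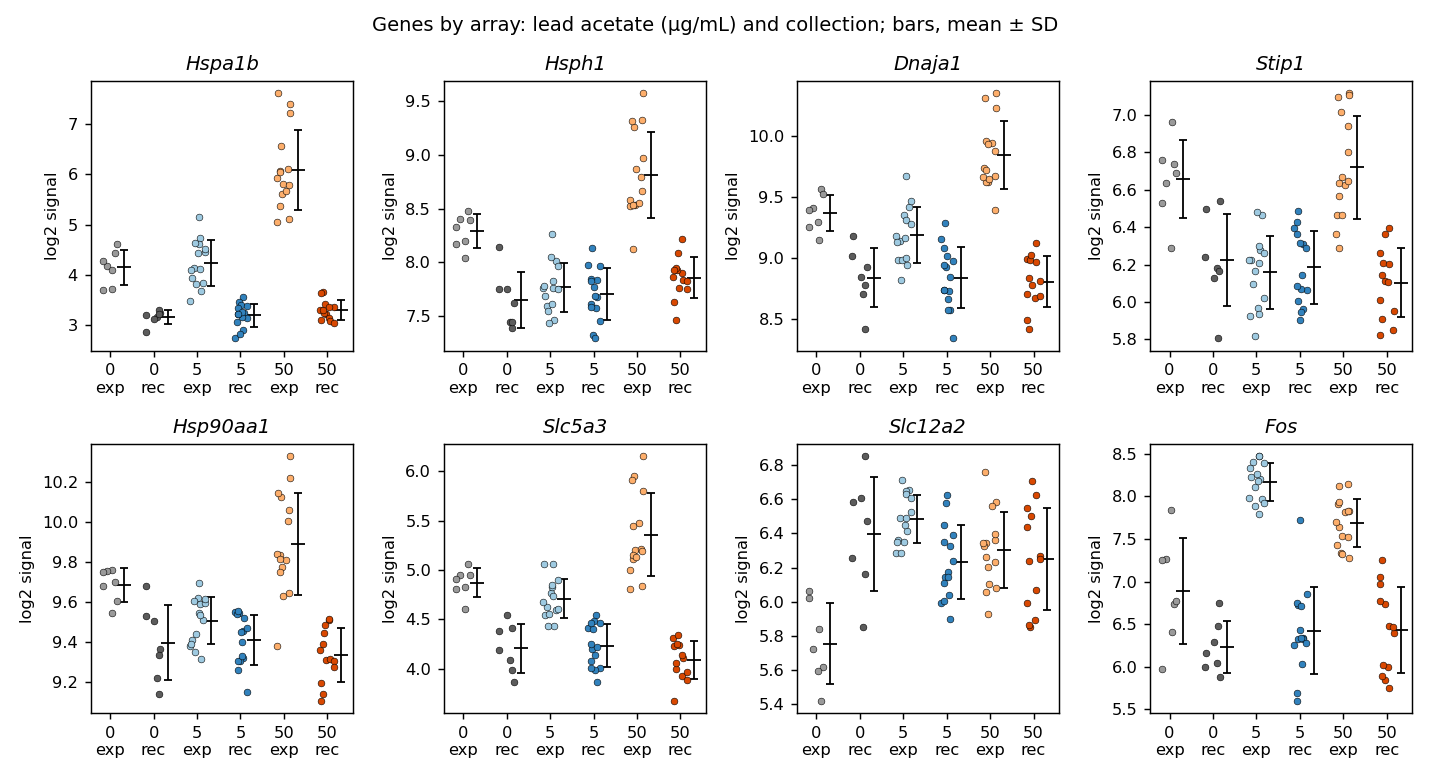
Log2 signal of 8 genes in each of the 72 arrays, by dose of lead acetate (µg/mL) and collection (exp, exposure; rec, recovery), with the mean and SD of each group; vertical axes do not start at 0. In Hspa1b the 15 high-lead exposure arrays lie between 5.04 and 7.60 and the 13 recovery arrays between 3.04 and 3.67; in Slc12a2 the high-lead groups overlap, and in Hsph1 and Stip1 the low-lead groups do.

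Immediate early genes encode short-lived regulators that cells switch on within minutes of a stimulus. Of 30 measured 14 fell, 0 rose and 16 did not pass, with a median of -0.15. In controls 7 fell and 2 rose. Fos, a subunit of the AP-1 transcription factor, ran from 7.28 to 8.14 after exposure (median 7.70) and from 5.76 to 7.26 after recovery (median 6.46). The groups did not overlap, and it fell by 1.26 ± 0.15 (limma, adjusted p = 1.89e-10), by 0.66 in controls and by 1.75 in low-lead mice. Neither the difference from controls (-0.60, adjusted p = 0.9997) nor that from low-lead mice (0.49, adjusted p = 0.993) passed. Klf6 (-0.68), Junb (-0.53) and the early activation marker Cd69 (-0.52) fell, while Egr1 was at -0.03 (adjusted p = 0.712).

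Glucocorticoid response genes rise with the stress hormone corticosterone. Of 20 measured 9 fell and 1 rose (median -0.15), against 2 and 1 in controls and 7 and 1 in low-lead mice. Dusp1, a phosphatase of MAP kinases that also stands among the immediate early genes, ran from 8.59 to 9.60 after exposure and from 7.57 to 8.62 after recovery. It fell by 0.94 ± 0.13 (limma, adjusted p = 1.04e-08), by 0.50 in controls and by 1.26 in low-lead mice. The chemokine receptor gene Cxcr4, a marrow homing receptor, fell by 0.64 ± 0.13 (adjusted p = 4.21e-05), Ddit4 by 0.45 and Sgk1 by 0.44. Tsc22d3, a glucocorticoid-induced leucine zipper gene, fell by 0.32 ± 0.09 (adjusted p = 0.00207), with 2 of 13 recovery arrays below the exposure range.

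Every measured B cell marker rose. All 27 passed the threshold, with a median of 0.72; in controls 26 of the 27 rose (median 0.80) and in low-lead mice 23 (median 0.43). Fcer2a, the low-affinity IgE receptor of B cells, ran from 7.50 to 8.72 after exposure (median 7.91) and from 8.89 to 9.79 after recovery (median 9.20). No arrays overlapped, and it rose by 1.29 ± 0.12 (limma, adjusted p = 1.68e-13) in high-lead mice, by 1.20 in controls and by 0.65 in low-lead mice. Cd22, an inhibitory receptor, ran from 8.06 to 9.19 and then from 9.45 to 10.12, and rose by 1.21 ± 0.11. Cd79a and Cd79b, the signalling chains of the B cell receptor, rose by 1.16 ± 0.13 and 1.17 ± 0.14, again without overlap. Fcmr, the IgM receptor gene, rose by 1.15, the complement receptor gene Cr2 by 1.03, and the lineage factors Ebf1 and Pax5 by 1.12 and 0.77. Ms4a1, which encodes CD20, rose by 0.56, with 6 of 13 recovery arrays above the exposure range. The chemokine receptor gene Ccr6 (1.10) and the immunoglobulin variable gene Ighv14-2 (1.17) rose without overlap too.

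MHC class II molecules present antigen on B cells, monocytes and dendritic cells. Of 19 genes measured 16 rose and 1 fell, with a median of 0.68, against 0.79 in controls and 0.39 in low-lead mice. Cd74, the invariant chain, ran from 10.10 to 11.19 after exposure and from 11.33 to 11.93 after recovery; it rose by 0.97 ± 0.11 (limma, adjusted p = 1.78e-11) and by 0.94 in controls. H2-DMb2 (1.14), a peptide loading subunit, H2-Oa (1.06), H2-Ab1 (0.91) and the master regulator Ciita (0.82) rose. Lgmn, a lysosomal protease, fell by 0.53. The difference between the high-lead and the control change lay at a median of 0.00 over this list and of -0.03 over the B cell list. Against the low-lead change the medians were 0.35 for both lists, beside 0.02 over all tested genes, with 17 of 19 and 27 of 27 members higher. In the fit to all arrays 0 members of either list passed in either contrast. In a fit to only the groups compared, Fcer2a and H2-Aa passed against the low-lead change, as did Ms4a4c, all 3 higher.

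The mean over the B cell markers was 7.24 to 8.14 in the 15 high-lead exposure arrays and 8.11 to 8.68 in the 13 recovery arrays, with 12 of 13 recovery arrays above every exposure array. In the controls it was spread more widely after exposure, from 6.83 to 8.54, and ran from 8.37 to 8.95 after recovery. Markers of plasma cells, the antibody-secreting descendants of B cells, were mixed: Mzb1 (0.60) and Ighm (0.54, with dimmer probe sets down to -0.39) rose, and Jchain, which joins IgM and IgA, fell by 0.58. Irf4 and Xbp1 completed the 4 of 10 that rose.

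**Figure D4:**
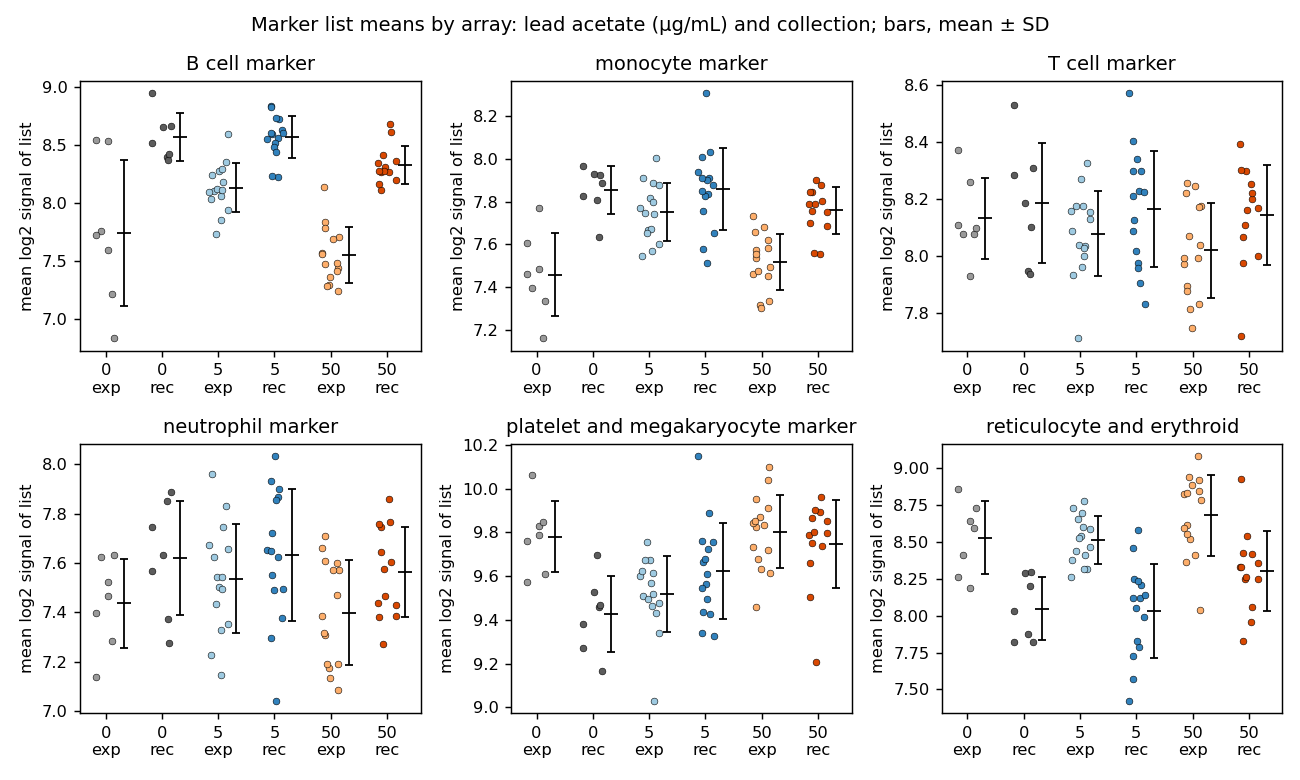
Mean log2 signal over the genes of 6 marker lists in each of the 72 arrays, by dose of lead acetate (µg/mL) and collection (exp, exposure; rec, recovery), with the mean and SD of each group; vertical axes do not start at 0. In high-lead mice the B cell mean rises from 7.55 to 8.33 and the monocyte mean from 7.52 to 7.76, the erythroid mean falls from 8.68 to 8.30, and the platelet means, 9.80 and 9.75, overlap.

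Monocyte markers rose in part. Of 27 measured 15 rose and 1 fell, with a median of 0.29 (0.39 in controls, 0.08 in low-lead mice). Cybb, which encodes the catalytic core of the NADPH oxidase, ran from 7.40 to 8.36 after exposure and from 8.60 to 9.13 after recovery. It rose by 0.99 ± 0.09 without overlap (limma, adjusted p = 2.66e-13) and by 1.24 in controls. The growth factor receptor gene Csf1r rose by 0.68 ± 0.08, also without overlap, and the chemokine receptor gene Ccr2, a mark of classical monocytes, by 0.67. Cd14, the co-receptor for bacterial lipopolysaccharide, fell by 0.60 ± 0.10. Markers of non-classical monocytes such as Treml4 (-0.01), Ace (-0.01) and Fcgr4 (0.03) did not pass.

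Of 33 neutrophil markers 9 rose and 0 fell in controls (median 0.17), and 13 rose and 1 fell in high-lead mice (median 0.20). Those that rose included the surface protein gene Cd177 (0.75), Chil3 (0.71) and the granule protein genes Ltf (0.58) and Ngp (0.52). S100a8, the calprotectin subunit, rose by 0.27 ± 0.07 (limma, adjusted p = 0.00175), with 7 of 13 recovery arrays above the exposure range. With the 18S ribosomal RNA signal of the arrays, described below, as a covariate, 3 of the 33 were called higher and 7 lower. Receptors of mature neutrophils such as Cxcr2 (-0.15), Trem1 (-0.20) and Il1r2 (-0.25) did not pass. Of 28 T cell markers 12 rose and 4 fell (median 0.12), among them the T cell receptor chain gene Cd3e (0.32), Cd4 (0.34) and Foxp3 (0.49), the factor of regulatory T cells; Cd8a (0.06) did not pass, and Trat1 fell by 0.60. Of 21 NK and cytotoxic genes 4 rose and 5 fell, not far from the 29.4% higher and 19.8% lower over all genes: Klrc1 fell by 0.43 and Gzma, a granzyme, rose by 0.26. In controls 4 T cell markers rose and 3 fell, and 6 NK and cytotoxic genes rose and 1 fell. Of 15 eosinophil and basophil genes Il6ra rose (0.72), Il4 (-0.49) and Ccr3 (-0.46) fell, and 12 did not pass. The lower calls went from 2 to 5 after quantile normalization or cyclic loess, to 9 after centring and to 7 with array weights or without 4 high-lead arrays of wide relative log expression. The list's median was -0.22, against 0.11 in controls and 0.12 in low-lead mice, and 0 members passed in either contrast of changes.

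Genes of the red cell lineage fell. Reticulocytes, the youngest red cells, still carry RNA from their precursors. Of 38 erythroid genes 26 fell and 1 rose, with a median of -0.37; the controls showed 25 lower and 1 higher (median -0.55) and the low-lead mice 28 lower and 1 higher (median -0.44). The gene that rose was Bcl11a, which stands in the B cell list as well. Epb42, a membrane skeleton protein, ran from 5.43 to 7.65 after exposure (median 7.15) and from 4.39 to 7.47 after recovery (median 5.73). The groups overlapped widely, with 3 of 13 recovery arrays below the exposure range, and it fell by 1.27 ± 0.24 (limma, adjusted p = 7.87e-06). The carbonic anhydrase genes Car1 (-0.76) and Car2 (-0.68), Trim10 (-0.82), Add2 (-0.79) and the erythroid master factors Gata1 (-0.35) and Klf1 (-0.42) fell. Among the brightest genes of the list, the anion exchanger Slc4a1 was at -0.22 (adjusted p = 0.119) and Bpgm at -0.02 (adjusted p = 0.743), neither past the threshold. Of 5 globin genes, whose transcripts were depleted in the laboratory before labelling, 3 fell (Hbb-bh1 -0.55, Hba-a2 -0.54, Hbb-y -0.47), so their level depends on that depletion too.

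Lead inhibits some enzymes of heme synthesis as proteins. Of 13 genes for enzymes and carriers of this pathway 4 fell and 1 rose (median -0.03), beside 19.8% lower and 29.4% higher over all genes. Alad, the enzyme that is most sensitive to lead, ran from 7.45 to 9.11 after exposure and from 7.60 to 8.64 after recovery, a difference of -0.04 ± 0.11 (limma, adjusted p = 0.776). Fech, which inserts iron into the ring, was at 0.04 ± 0.03 (adjusted p = 0.308), and Alas2, the rate-limiting enzyme of red cells, at 0.04 ± 0.03 (adjusted p = 0.215). Both lie near the top of the array's range, at 13.5 and 13.8 against a highest value of 14.1, where differences can be compressed. A dimmer probe set of Fech gave -0.54 in high-lead mice and -0.54 in controls. The members that fell were the mitochondrial carriers Abcb10 (-0.40) and Slc25a38 (-0.37) and the enzyme genes Uros (-0.25) and Cpox (-0.20). Alas1, the housekeeping form, was called higher at 0.14, and 0 genes of the list were called higher after quantile normalization, centring or cyclic loess, with the 18S covariate, or when those 4 wide high-lead arrays, or the 19 arrays with Obp1a above 6, were left out.

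Other lead targets and metal genes were measured as well. Nt5c3, the nucleotidase that lead inhibits in red cells, ran from 9.23 to 10.77 after exposure and from 8.60 to 10.62 after recovery. It fell by 0.83 ± 0.16 (limma, adjusted p = 1.45e-05), by 0.90 in controls and by 1.11 in low-lead mice. In the list of lead targets 5 of 12 genes rose and 3 fell, the others that fell being the antioxidant enzyme genes Gsr (-0.54) and Cat (-0.35). The metallothioneins bind metals and are induced by them: Mt1 was 5.11 after exposure and 5.06 after recovery (-0.05 ± 0.07, adjusted p = 0.574), and Mt2 4.40 and 4.38 (-0.01 ± 0.10, adjusted p = 0.914). No recovery array lay outside the exposure range in the direction of the difference for either. Of 12 metallothionein and zinc genes the zinc exporter gene Slc30a1 fell (-0.26) and the metal sensor gene Mtf1 was called higher (0.15). Mtf1 was not past the threshold after quantile normalization, centring or cyclic loess, or with the 18S or 3′ to 5′ covariate (lowest 0.05, adjusted p = 0.505 after cyclic loess). Tfrc, the transferrin receptor that brings iron into red cell precursors, ran from 9.01 to 11.75 and then from 8.10 to 10.52. It fell by 0.73 ± 0.24 (adjusted p = 0.0088), and by 1.48 in controls. Of 19 iron genes 7 rose and 5 fell (6 and 7 after quantile normalization, 6 and 8 after centring or cyclic loess), among them the regulators Aco1 (0.46) and Ireb2 (-0.56). Beside these lead target, zinc and iron counts stand 29.4% higher and 19.8% lower over all genes.

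Of 32 platelet genes 7 rose and 8 fell, with a median of -0.02, not far from the 29.4% higher and 19.8% lower over all genes. In controls 2 rose and 17 fell (median -0.29) and in low-lead mice 10 rose and 4 fell (median 0.09). P2ry12, the ADP receptor that is blocked by antiplatelet drugs, ran from 9.05 to 9.85 after exposure and from 7.16 to 8.72 after recovery. It fell by 1.33 ± 0.16 without overlap (limma, adjusted p = 3.53e-10), by 1.88 in controls and by 1.05 in low-lead mice. Thbs1, a platelet granule protein, fell by 0.99 ± 0.13, also without overlap, and by 1.35 in controls. In contrast Vwf (0.75), Itgb3 (0.54) and Itga2b (0.48), which encode von Willebrand factor and its integrin receptor, rose, and the chemokine gene Pf4, at 12.9 in both groups, was at 0.02 ± 0.05 (adjusted p = 0.777). No platelet gene passed in the contrast of the high-lead change with either other group. In the contrast with controls all 32 were nevertheless higher (median 0.29). In that with low-lead mice all 32 were lower (median -0.16). Over all tested genes these medians were 0.01 and 0.02. The members of a list are not independent replicates.

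**Figure D5:**
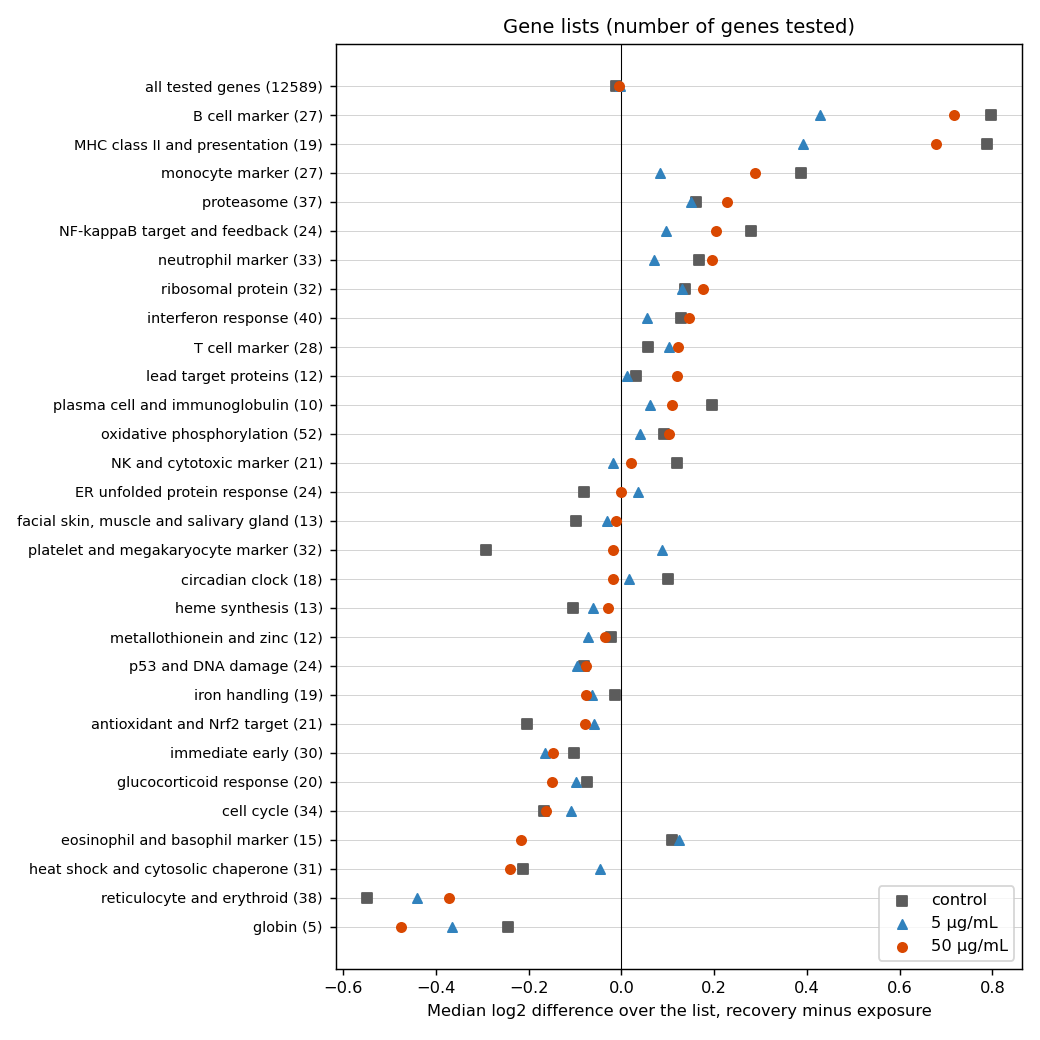
Median log2 difference between recovery and exposure over each of 29 gene lists, with the number of genes tested, in control, low-lead (5 µg/mL) and high-lead (50 µg/mL) mice, ordered by the high-lead value. The B cell list is highest in all 3 groups, the high-lead median being 0.72; the platelet list lies at -0.29 in controls and -0.02 in high-lead mice, and the heat shock list at -0.05 in low-lead and -0.24 in high-lead mice.

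Medians of the housekeeping and response lists lay between 0.10 and 0.23 in the values as deposited. The control medians were 0.14, 0.16, 0.09, 0.13 and 0.28 for the ribosomal, proteasome, oxidative phosphorylation, interferon and NF-kappaB lists. Of 32 ribosomal protein genes 24 rose and 0 fell (median 0.18, Rpl12 0.42). Of 37 proteasome genes 22 rose and 2 fell (median 0.23), among them the ATPase genes Psmc4 (0.60) and Psmc1 (0.55) and the immune subunit gene Psmb10 (0.53). The split of the 52 genes of oxidative phosphorylation depended on scaling: 23 rose and 7 fell in the values as deposited (median 0.10), against 22 and 14 after quantile normalization, 22 and 16 after centring, 21 and 17 after cyclic loess (median 0.01) and 13 and 12 with the 18S covariate, with complex I genes Ndufv1 (0.72) and Ndufs7 (0.54) highest and the small subunit gene Cox6c (-0.31) lowest. Of 40 interferon response genes 19 rose and 2 fell (median 0.15), such as Ifi44l (0.67), Ifi35 (0.61) and the RNA sensor gene Oas1a (0.60). Of 24 targets and feedback genes of NF-kappaB 12 rose and 3 fell, but with the marker list means as covariates 6 were higher and 9 lower (median -0.03): the signalling genes Traf1 (0.82), Nfkbie (0.74) and Relb (0.57) rose, and the cytokine gene Il1b (-0.58) fell.

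Of 34 cell cycle genes 16 fell and 6 rose (median -0.16). Those that fell included Rrm2 (-0.73), which makes deoxynucleotides, and the mitotic genes Nusap1 (-0.68) and Ube2c (-0.68). Of the 6 that rose 4 were Mcm2, Mcm5, Mcm6 and Mcm7, subunits of the replication helicase, with Mcm5 at 0.44. The proliferation marker Mki67 was at -0.15 (adjusted p = 0.408). Of 24 p53 and DNA damage genes 9 fell and 5 rose, led by Gadd45a, a stress-induced inhibitor of growth. It fell by 0.94 ± 0.11 with 12 of 13 recovery arrays below the exposure range (limma, adjusted p = 2.12e-10), and by 1.08 in controls. Of 21 antioxidant genes 8 fell and 6 rose, with Nqo1 (-0.55) and Gsr (-0.54) lowest and Pgd (0.45) and Gstp1 (0.39) highest. Of 18 clock genes 3 rose and 3 fell. The clock calls were no more frequent than over all genes, where 29.4% were higher and 19.8% lower. The same shares stand beside the cell cycle, p53 and antioxidant counts. In controls 8 cell cycle genes fell and 3 rose (median -0.17), and 7 p53 genes fell and 2 rose. The control antioxidant list had 8 lower and 4 higher, and the clock list 0 lower and 5 higher.

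The remaining genes of largest change belong to no list. Trim7, a ubiquitin ligase gene, ran from 4.81 to 6.01 after exposure and from 6.22 to 7.42 after recovery, and rose by 1.32 ± 0.14 (limma, adjusted p = 8.2e-12) and by 1.72 in controls. The splicing factor and kinase genes Srrm2 (1.14) and Srpk3 (1.28), the RNA-binding protein gene Taf15 (1.10), the non-coding RNA Lncpint (1.08) and the centrosome gene Cep97 (1.07) rose. The probe sets of Cep97 disagree, others of like level giving -0.18 and -0.14. Yipf4 (-1.08), the formin gene Diaph3 (-1.08), Chac2 (-1.01), which degrades glutathione, Esco2 (-0.98), Dcun1d1 (-0.97), Tceal8 (-0.95) and the antiproliferative gene Tob1 (-0.94) fell, each by between 0.75 and 1.22 in controls. Dimmer probe sets of Yipf4 (0.40) and Dcun1d1 (0.51) went the other way.

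Of 6 measures of the arrays 3 differed between the collections in high-lead mice. The hybridisation controls (adjusted p = 0.128), the array median (0.128) and the spread of relative log expression (0.0668) did not pass. The mean signal of the 18S ribosomal RNA control probes went from 7.79 to 6.43 in high-lead mice (adjusted p = 0.00024, permutation test, two-sided, over 6 measures) and from 7.00 to 6.38 in controls. The difference between 3′ and 5′ control probes, a measure of RNA integrity, went from 0.52 to 0.75 (adjusted p = 0.00044) and from 0.46 to 0.79 in controls, and the mean globin signal went from 5.83 to 5.43 (adjusted p = 0.00044). With the 18S mean as a covariate 4343 genes were called, 3933 of them among the 6189, and with the marker list means as covariates 4265 were called, 2624 of them among the 6189. Under either covariate Hspa1b passed in both contrasts of changes. With the marker list means as covariates, 20 heat shock genes were called lower and 1 higher, 18 immediate early genes lower and 0 higher, and 13 glucocorticoid response genes lower and 1 higher, against 20, 14 and 9 lower without them. Under these covariates the cell cycle list turned to 6 higher and 4 lower, the monocyte list to 5 and 6, the neutrophil list to 3 and 7, the unfolded protein response list to 1 and 8 and the lead targets to 1 and 4. The proteasome list went to 7 higher and 5 lower, the erythroid list to 6 and 7 and the B cell list to 7 and 7, the means of the B cell, T cell, monocyte, neutrophil, platelet and erythroid lists being the covariates themselves. Defining markers of B cells (Cd79a 9.03, Ms4a1 10.2), T cells (Cd3e 10.7), monocytes (Csf1r 9.40), neutrophils (S100a8 12.5), platelets (Pf4 12.9) and red cells (Alas2 13.8) were well above the arrays' median values of 4.05 to 4.22 on average over all arrays, while those of skin and muscle (Krt5 4.56, Krt14 4.03, Acta1 4.08, Ckm 4.84) lay near it. Of 13 facial tissue genes 0 passed between the collections. The first principal component of the 28 arrays held 37.5% of the variance, with exposure arrays at a median of -14.8 and recovery arrays at 15.0, and the ranges overlapped. Arrays correlated at a median of 0.985 within the exposure group, 0.989 within the recovery group and 0.977 between them.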

How the data were processed

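Whole-blood RNA of 72 samples was measured on oligonucleotide arrays. The deposited values are log2 signals normalized by the authors with RMA, per the submitters' processing notes (version and variant: not given in the sources used here). RNA was depleted of globin transcripts, amplified and biotin-labelled, per the labels' protocols. The platform annotation gave 34958 of 45101 probe sets exactly 1 gene symbol and 932 several; 9211 were not listed, and the 64 array controls were left out. A probe set was kept when above 4.14, the median of all values, in at least 7 arrays, and a gene was represented by its probe set of highest mean, which gave 12589 genes. A mean per group was fitted over the 72 arrays (limma 3.58.1, R 4.3.3), on 66 residual degrees of freedom, with empirical Bayes and Benjamini-Hochberg adjustment at 0.05; interactions compared the changes of the dose groups. Numbers of arrays limit the precision, and where samples share an animal the p-values ignore it.

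The 13 same-numbered pairs of high-lead samples had correlations of -0.458 to 0.477 between their deviations, 4 of them over 0.1. The median was -0.0013, beside 0.00055 for samples of unlike number. Such deviations also carry the RNA quality and cell mix of each sample, so they cannot decide whether numbers pair samples. In simulated data, 200 of 12589 genes were changed. Between the collections limma recovered 97 of 100 changed by 0.5 and 100 of 100 changed by 1. For the contrast with controls limma recovered 62 and 96. Recovery with fewer changed genes was not tested. In the measured contrast with controls 1 gene passed, Hspa1b, while Dnaja1 (-0.51) and Dnajb1 (-0.57) did not.

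Members and the 29 gene lists were chosen with earlier results of these data known; 20 genes stand in more than 1 list. Named were the 15 highest and 15 lowest called genes (gene models and clone names left out), up to 4 members of smallest p of each list described, the 5 highest and lowest called genes of each other contrast or the 5 of smallest p, and a fixed set of lead, stress and marker genes. Other list members, Chordc1 and Hspd1 were named after their values were seen. Alternatives were other normalizations, filters, probe sets, fits, array weights, covariates and arrays left out. Promoter windows are from RefSeq (GRCm38.p6).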

Additional observations from a re-analysis of the deposited data

Results flagged for a closer look

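The change between collections differed between dose groups for 8 genes, by limma's interaction test. Hspa1b differed by -1.80 ± 0.28 between the high-lead and the control change (adjusted p = 0.000176) and by -1.73 ± 0.23 between the high-lead and the low-lead change (adjusted p = 7.13e-07). Against the low-lead change Hsph1 differed by -0.89, Slc5a3 by -0.80, Dnaja1 by -0.69, Stip1 by -0.64, Chordc1 by -0.51, Hsp90aa1 by -0.46 and Hspd1 by -0.44, with adjusted p-values from 5.28e-05 for Hsph1 to 0.0286 for Hspd1. Of these 8 genes only Hspa1b passed against the control change.

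Both control groups, of 7 arrays each, were screened for single arrays standing apart by Dixon's test; the larger groups were not. Over 70 combinations of gene and group 3 arrays stood apart, and chance alone flags about 1 in 20 groups. Fcer2a was highest in replicate 5 of the control recovery group, at 9.96 against 9.46 for the next array, and Hspa1b was lowest in the same replicate, at 2.87 against 3.13. Tob1 was lowest in replicate 6 of the control exposure group, at 6.59 against 6.87.

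Probe sets without exactly 1 gene symbol were not used above. Of 3997 that passed the same filter, 2052 passed the threshold between the collections in high-lead mice (51.3%) and 1705 did so in controls (42.7%), and 0 passed in either contrast of changes.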

How the results depend on the processing

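The high-lead count of 6189 stayed between 4265 and 7423 over 44 alternatives, and between 5599 and 6591 with 1 array left out. The control count of 4544 ran from 3791 to 5149 with 1 array left out, and fell to 1733 with cell marker means as covariates. The contrast of the high-lead with the control change, 1 gene, gave 2 genes after quantile normalization, centring, cyclic loess or with the 3′ to 5′ covariate (Slc12a2 joining Hspa1b each time), 3 with the hybridisation or 18S covariate, 4 with cell marker means and 6 with array weights. With 1 array left out it ran from 1 to 2, being 2 without control exposure replicate 4, control recovery replicate 1 or 5, high-lead exposure replicate 1, or high-lead recovery replicate 2 or 7. Hspa1b was called in all 57 of its alternatives there. The contrast with the low-lead change, 8 genes, gave 15 with array weights, 30 with cell marker means, 11 with only the groups compared (Fcer2a, H2-Aa and Ms4a4c higher), and from 7 to 9 with 1 array left out. Whether replicate numbers pair the samples is not known. With same-numbered samples of a dose taken as pairs (replicate block) the high-lead count was 6114. In that fit 6 genes passed against the low-lead change, Hsp90aa1 and Hspd1 not passing. Chosen after the data were seen, leaving out the 4 high-lead arrays of widest relative log expression (exposure replicates 1, 6 and 13, recovery replicate 12) gave 4870 and 14 genes, and leaving out the 19 arrays with Obp1a above 6 gave 5468 and 4 genes (Dnaja1, Hspa1b, Hsph1 and Slc5a3).

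Of 151 named genes in high-lead mice most values kept their direction and call, 6335 of 6480. Signs turned with cell marker means as covariates for Alad (0.27), Atf6 (-0.0070), Bhlha15 (0.0070), Crisp3 (-0.082), Hba-x (0.061), Hbb-y (0.11), Ighm (-0.0053), Irf4 (-0.19), Krt15 (0.0022), Krt5 (0.061), Mt1 (0.14), Mt2 (0.20), Mt3 (0.12), Mzb1 (-0.11), Slc39a1 (-0.086) and Xbp1 (-0.019). They turned for Slc39a1 after quantile normalization (-0.0033) and cyclic loess (-0.021), for Fech after centring (-0.029) and cyclic loess (-0.0051), for Pf4 after centring and cyclic loess (-0.047 and -0.035) and for Alas2 after centring (-0.021). They turned for Mt2 after cyclic loess (0.0030), with the hybridisation (0.020) and 18S covariates (0.030) and without the wide arrays (0.056), for Mt3 with 18S (0.041) and for Slc12a2 with the 3′ to 5′ covariate (0.025). Mt1 turned without the wide arrays (0.014), and without the Obp1a arrays Alad (0.044) and Mt1 (0.036) did. With 1 array left out Alad ran from -0.097 to 0.022 and Mt2 from -0.035 to 0.014. None of the genes that turned under rescaling, or with 1 array left out, was past the threshold in the deposited values. The causes were not tested. Tubb6 lost its call in high-lead mice without recovery replicate 12 (-0.17), Tfrc with the 18S covariate (-0.63), and Mtf1 after each rescaling. In the contrast with the low-lead change Hspd1 lost its call when any 1 of 13 arrays was left out: high-lead exposure replicates 2, 4, 9, 11 and 14 and recovery replicates 3, 4 and 8, and low-lead exposure replicates 11 and 12 and recovery replicates 4, 6 and 9. Array signal near background limits dim genes, and the number of controls limits the contrast with them.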

Other observations

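A few transcripts of secretory glands were dim in most arrays and bright in some of every group. They were picked out after their values were seen, because they lie far from the other genes in the plot of high-lead against control changes. Obp1a, an odorant-binding protein gene, Scgb1b2, a secretoglobin gene, Mucl2, a mucin-like gene, and Pip, the prolactin-induced protein gene, encode proteins that exocrine glands secrete. Over the 72 arrays Obp1a lay between 1.15 and 5.84 in 53 and between 7.73 and 10.5 in 19, with 6 of the 53 between 4.54 and 5.84. In high-lead mice it was bright in 6 of 15 exposure arrays (replicates 1, 3, 11, 12, 13 and 14, from 7.95 to 10.5) and in 2 of 13 recovery arrays (replicates 8 and 13, from 8.09 to 8.64). In controls it was bright in 1 of 7 exposure and 2 of 7 recovery arrays, and in low-lead mice in 5 of 15 and 3 of 15. In the same 6 high-lead exposure arrays Scgb1b2 lay between 7.86 and 10.4, Mucl2 between 7.54 and 10.1 and Pip between 6.01 and 8.15. In the other 9 these genes lay at or below 4.98, 4.96 and 3.24. Between the collections Obp1a differed by -2.28 in high-lead mice and by 0.97 in controls, and none of the 4 passed the threshold in high-lead mice. The fixed list of facial skin, muscle and salivary gland genes does not hold them, and 0 of its 13 measured members passed.

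Chaperone levels of the arrays with bright Obp1a overlapped those of the others. In the high-lead exposure group Hspa1b was 6.23 ± 0.75 (SD, n = 6) in the arrays with bright Obp1a and 5.98 ± 0.84 (SD, n = 9) in the others, with ranges of 5.60 to 7.60 and 5.04 to 7.38. Dnaja1 was 9.89 ± 0.25 (SD, n = 6) and 9.81 ± 0.31 (SD, n = 9), and Hsph1 8.97 ± 0.38 (SD, n = 6) and 8.70 ± 0.40 (SD, n = 9). Without the 19 arrays Hspa1b passed in both contrasts of changes. Where the gland transcripts came from was not tested.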
